A study of Homo sapiens with 36 samples.

Results

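Double-stranded RNA-binding proteins and their close partners were followed in WiT49 cells, a cell line from an anaplastic Wilms tumor (a kidney tumor of childhood), during exposure to a low dose of actinomycin D (actD), which intercalates into DNA and blocks transcription. The set was a fixed list of 9 genes, DHX9, ILF2, ADAR, ADARB1, SND1, STAU1, STAU2, EIF2AK2 and PRKRA, found by symbol in GENCODE release 29 after removal of the version from each Ensembl identifier. All 9 were present in each of the 6 tables of counts, among 58219 genes in the RNA tables and 43582 genes in the footprint tables. The genes were chosen by their known function with earlier fold changes and p-values of these same libraries in view, so the p-values given here are descriptive and no test was made over the list as a whole.

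Cells received 2 nM actD or the vehicle dimethyl sulfoxide (DMSO) in complete medium for 6 h or 72 h, or were passaged for 2 weeks in 2 cycles of 7 days, where 3 days with actD or DMSO preceded 4 days in medium without additive. Total RNA and ribosome footprints (the RNA fragments that translating ribosomes shield from nuclease) were sequenced, with 3 libraries in each of 12 groups. All groups are the same cell line, and the labels do not say whether libraries of a group came from separate cultures, so p-values measure the spread between these libraries only. For RNA at 2 weeks the labels conflict: a library's title and treatment entry give one treatment, and its library name, also its column name, the opposite one. Here "named actd" and "named dmso" follow the column names, and every 2-week RNA difference below changes sign if the titles and treatment entries are right.

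Double-stranded RNA forms when a transcript folds back on itself or pairs with its antisense partner, and during infection by many viruses. Cells edit it (ADAR, ADARB1), unwind it (DHX9), carry or degrade transcripts that hold it (STAU1, STAU2, SND1), and sense it through the kinase PKR (EIF2AK2), which stops translation by phosphorylating the initiation factor eIF2. In many tumors ADAR is known for keeping the cell's own double-stranded RNA from setting off PKR and the interferon response.

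RNA libraries held 40221994 to 69240041 counts and footprint libraries 152556 to 1281039, of which protein-coding genes took 52.9 to 76.3% and 2.12 to 40.4%. Levels are given as CPM, the count divided by a library size that TMM factors adjust so that most genes of a table lie at one level. Since the tables differ in count scale, no level is compared across them. Of the 10 markers of Wilms tumor and nephron progenitors, IGF2 lay between 1020 and 2359 CPM in every RNA library and WT1 between 3.77 and 37.6, while PAX2, SIX2, CITED1, SALL1, EYA1 and PAX8 stayed under 1 CPM and MEOX1 reached at most 1.21. Of the 9 markers of other cells, COL1A1 (346 to 818 CPM) and PDGFRB (37.9 to 81.5 CPM) were the most abundant, COL1A2 was at 0, and the endothelial and blood markers CDH5, PECAM1 and PTPRC were at or near 0. Mitochondrial ribosomal RNA took 28.2 ± 3.86% of RNA counts under actD and 19.1 ± 3.51% under DMSO at 72 h (SD, n = 3), and 28.7 ± 2.72% in named actd against 21.3 ± 1.63% in named dmso at 2 weeks. At 6 h these shares were 7.71 ± 0.452% and 7.76 ± 0.679%. In 2-week footprints, whose labels do not conflict, mitochondrial ribosomal RNA took 5.67 ± 0.571% under actD and 3.55 ± 0.468% under DMSO. Whether this bears on the labels of the 2-week RNA was not tested. The 9 markers of other cells summed to 544 to 909 CPM under actD and 438 to 568 CPM under DMSO at 72 h. At 2 weeks they summed to 568 to 689 CPM in named actd and 404 to 512 CPM in named dmso. COL1A1 made up most of each sum (mean of the group means 496 CPM, against 52.2 for PDGFRB), so the sums mainly follow that gene. The part of mitochondrial ribosomal RNA or of these markers in the RNA differences below was not tested, and in these bulk samples fewer cells of a kind and less RNA per cell cannot be told apart.

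Within a table, levels of different genes were compared per kilobase of exon. ILF2, which encodes the nuclear factor NF45, had the highest RNA level in all 6 RNA groups, and its libraries never overlapped those of the gene next in order. Under DMSO at 6 h it stood at 249 ± 51.4 CPM per kilobase, and the order continued with DHX9 (63.0 ± 2.79), ADAR (50.04 ± 1.07), STAU1 (41.0 ± 2.53), SND1 (28.0 ± 1.35), PRKRA (17.98 ± 2.22), ADARB1 (12.3 ± 0.571), EIF2AK2 (11.5 ± 0.777) and STAU2 (3.96 ± 0.219). Under DMSO at 72 h SND1 was above PRKRA, EIF2AK2, STAU2 and ADARB1 with 21.1 ± 5.31 CPM per kilobase, though its libraries overlapped those of PRKRA and EIF2AK2. In the actD libraries of the same table it stood last with 3.54 ± 2.41, a level that overlapped those of STAU2 (3.73 ± 0.693) and ADARB1 (4.20 ± 0.832).

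**Figure D1:**
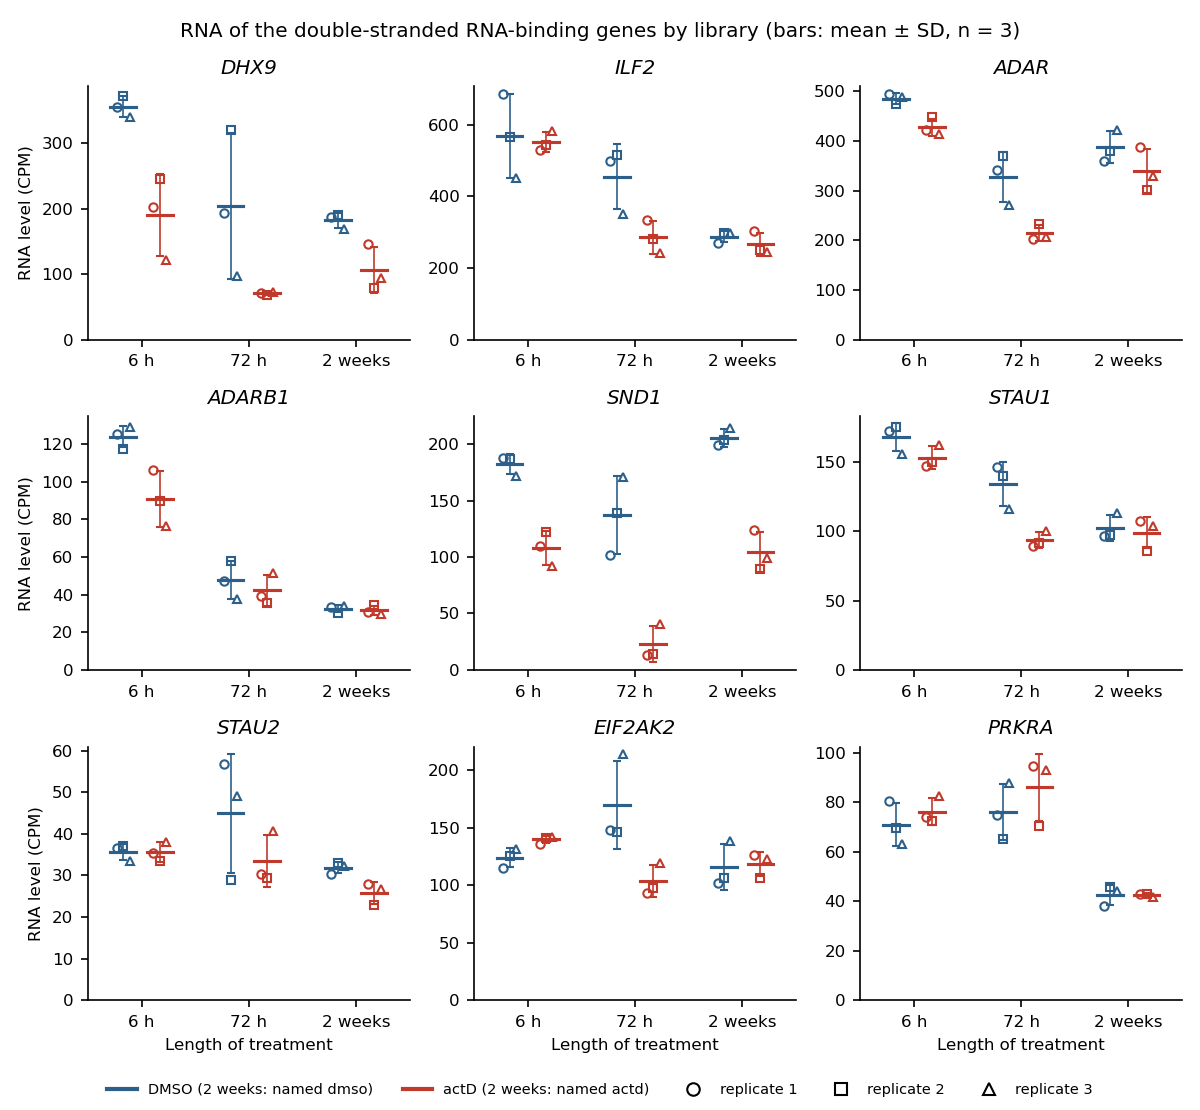
RNA level of each gene in CPM (y axis, linear from 0) in every RNA library at 6 h, 72 h and 2 weeks (x axis), with DMSO or named dmso in blue, actD or named actd in red, 1 symbol per replicate number and bars at the mean ± SD of 3 libraries. SND1 at 72 h lay between 13.5 and 41.1 CPM under actD and between 102 and 171 under DMSO, and DHX9 and SND1 were lower in all red than in all blue libraries at each time.

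DHX9 and SND1 were the members with lower RNA, with groups apart, under actD at 6 h and 72 h and in named actd at 2 weeks. If the titles are right, both were instead higher under actD at 2 weeks, by 0.77 and 0.98 on the log2 scale. DHX9 encodes a helicase that unwinds double-stranded RNA and RNA-DNA hybrids and works in transcription and splicing. SND1, or Tudor-SN, has nuclease-like and Tudor domains, binds edited double-stranded RNA that carries inosine, and acts in transcription, splicing and RNA decay. Of the 19404 genes tested in all 3 tables, 180 (0.928%) were lower with groups apart in each of them, 48 (0.247%) were higher in each, and 153 (0.788%) were lower with an unadjusted p under 0.05 in each, DHX9 and SND1 included. By titles, 3 of these genes (0.0155%) were lower with groups apart in all 3 tables and no member was. At 6 h and 72 h alone, where no labels conflict, 460 (2.37%) were lower with groups apart in both, among them DHX9, SND1 and ADAR. The stretches upstream of DHX9 and SND1 are shown because the pair was lower in the 3 tables by column names. They are given 5′ to 3′ on the plus strand of GRCh38.p14, from RefSeq, with capitals for each match to GGGCGG or its reverse complement (a GC box, the kind of site bound by Sp1-type factors).
DHX9, chr1:182839097-182839346, the 250 bases before its RefSeq start: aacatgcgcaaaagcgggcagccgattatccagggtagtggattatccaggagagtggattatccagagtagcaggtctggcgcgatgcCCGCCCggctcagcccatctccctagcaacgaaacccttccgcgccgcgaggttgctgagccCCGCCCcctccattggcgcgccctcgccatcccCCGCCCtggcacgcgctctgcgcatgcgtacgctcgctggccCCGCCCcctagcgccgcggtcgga
SND1, chr7:127651944-127652179, up to the first annotated GENCODE base, which lies 14 bases before the RefSeq start: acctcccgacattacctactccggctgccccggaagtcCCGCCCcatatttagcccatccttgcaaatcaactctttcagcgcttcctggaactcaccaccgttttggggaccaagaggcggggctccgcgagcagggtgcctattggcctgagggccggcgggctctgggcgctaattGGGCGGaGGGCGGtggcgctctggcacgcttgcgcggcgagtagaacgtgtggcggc
In the 1 window searched per gene, that nearest its GENCODE 5′ end, the 250 bases before the start held 4 matches in DHX9 and 3 in SND1. They held 6 in PRKRA, 5 in ADARB1, 4 in EIF2AK2, 2 in STAU1 and 0 in ILF2 and ADAR. Of 34788 such windows in the RefSeq set, 42.6% held at least 1. GC content was 67.6% in DHX9 and 65.2% in SND1, against a median of 58.0%. The step GpC, at which actD is known to prefer to intercalate, occurred 37 times in DHX9 and 31 times in SND1, against a median of 20 (percentiles 90.1 and 78.9). The other members with a window, not lower in all 3 tables, had 46 GpC steps in ADARB1, 37 in STAU1, 34 in EIF2AK2, 32 in PRKRA, 15 in ADAR and 13 in ILF2. These matches and steps describe the sequence and are neither binding sites nor causes shown by these data.

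In gene length the 2 genes differed widely. DHX9 (chr1:182839369-182887751, GRCh38, plus strand) spans 48383 bases with 31 exon blocks, and SND1 (chr7:127652180-128092609, plus strand) spans 440430 bases with 35, the longest span of the 9. STAU2 is the next longest, at 327340 bases.

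SND1 RNA at 6 h was 110.04, 122 and 92.3 CPM in the actD libraries and 188, 187 and 172 in the DMSO libraries. The groups did not overlap, and the log2 fold change was -0.75 (SE 0.132, unadjusted p = 0.000426, edgeR adjusted p = 0.182). At 72 h it was 13.5, 14.5 and 41.1 CPM under actD and 102, 139 and 171 under DMSO. The groups lay far apart, with actD replicate 3 the highest of its group, and the log2 fold change was -2.57 (SE 0.475, unadjusted p = 0.000741, edgeR adjusted p = 0.199), or -3.30 (adjusted p = 0.127) without that library. Only 0.21% of all 21195 tested genes had a lower log2 fold change. At 2 weeks SND1 was at 124, 89.3 and 99.5 CPM in named actd and 199, 204 and 214 in named dmso. Again the groups did not overlap, with a log2 difference of -0.98 (SE 0.142, unadjusted p = 0.000119, edgeR adjusted p = 0.138).

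DHX9 RNA at 6 h was 202, 245 and 122 CPM under actD and 354, 372 and 340.1 under DMSO. Every actD library lay below every DMSO library, with a log2 fold change of -0.90 (SE 0.231, unadjusted p = 0.00438, edgeR adjusted p = 0.418). At 72 h the actD libraries held 71.0, 68.7 and 72.2 CPM and the DMSO libraries 194, 319 and 97.4. The actD libraries were close to each other and the DMSO libraries spread widely, and the log2 fold change was -1.53 (SE 0.395, unadjusted p = 0.00521, edgeR adjusted p = 0.263), or -1.05 without DMSO replicate 2. At 2 weeks DHX9 stood at 146, 78.4 and 94.2 CPM in named actd and 186, 191 and 169 in named dmso, apart, with a log2 difference of -0.77 (SE 0.219, unadjusted p = 0.00748, edgeR adjusted p = 0.432). A processed pseudogene, DHX9P1, could share reads with DHX9, since how reads with several matching places were counted is not given in the sources used here.

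Of the editing enzymes, ADAR converts adenosine to inosine in double-stranded RNA throughout the transcriptome, and ADARB1 (ADAR2) is best known for recoding neurotransmitter receptor transcripts. ADAR RNA at 6 h was 421, 447 and 414 CPM under actD and 494, 473 and 488 under DMSO. These groups did not overlap, but the difference was small, with a log2 fold change of -0.18 (SE 0.108, edgeR adjusted p = 0.718). At 72 h ADAR was at 202, 232 and 207 CPM under actD and 342, 369.5 and 271 under DMSO. The actD libraries were again all lower, with a log2 fold change of -0.61 (SE 0.202, unadjusted p = 0.0172, edgeR adjusted p = 0.3004). At 2 weeks the groups overlapped (302 to 388 CPM in named actd, 359 to 422 in named dmso; log2 difference -0.19, SE 0.136). ADARB1 was apart at 6 h only, with 106.05, 89.9 and 76.4 CPM under actD and 125, 118 and 129 under DMSO. Its log2 fold change there was -0.45 (SE 0.139, unadjusted p = 0.0121, edgeR adjusted p = 0.499). At 72 h and 2 weeks its groups overlapped, with log2 differences of -0.18 (SE 0.236) and -0.04 (SE 0.110).

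EIF2AK2 encodes PKR, the kinase that double-stranded RNA activates, and PRKRA encodes PACT, a protein activator of PKR and a partner of Dicer. EIF2AK2 RNA at 6 h was 136, 141 and 142 CPM under actD and 115, 125 and 132 under DMSO. By column names, but not by titles, it was the only member apart in the higher direction in any RNA table. Its log2 fold change was 0.17 (SE 0.106, edgeR adjusted p = 0.731). At 72 h the order was the opposite, with 93.5, 97.6 and 119 CPM under actD and 148, 147 and 214 under DMSO. Every actD library was lower, and the log2 fold change was -0.71 (SE 0.227, unadjusted p = 0.0144, edgeR adjusted p = 0.293). At 2 weeks the groups overlapped, with a log2 difference of 0.03 (SE 0.148) that was -0.12 when scaled by library totals. PRKRA overlapped between groups at all 3 times. Its levels were 72.2 to 82.3 CPM under actD and 62.9 to 80.2 under DMSO at 6 h, and 70.5 to 94.5 and 65.2 to 87.6 at 72 h, with log2 differences of 0.10 and 0.18. At 2 weeks PRKRA was at 41.8 to 43.1 CPM in named actd and 38.0 to 45.8 in named dmso. EIF2AK2 is known as an interferon-induced gene, and the 300 bases around its RefSeq start held 1 match to GAAA, any 2 bases and GAAA again, the core of an interferon-stimulated response element. This core was found on either strand in 3.6% of 34796 such windows. For each member with a window, only the window nearest its GENCODE 5′ end was searched, and no other member held the core there. ADAR, ADARB1, PRKRA and STAU1 have 3, 4, 3 and 2 windows, so their further starts were not searched. The EIF2AK2 match is shown in capitals, 5′ to 3′ on the minus strand, and covers base -6 to base 4 around the start.
EIF2AK2, chr2:37156967-37156996: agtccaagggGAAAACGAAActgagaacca

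STAU1 and STAU2 are Staufen proteins, which bind double-stranded stems in messenger RNA and direct its transport and, with UPF1, its decay. STAU1 RNA at 72 h was 89.2, 91.3 and 100.4 CPM under actD and 146, 140 and 116 under DMSO. The groups did not overlap, with a log2 fold change of -0.52 (SE 0.183, unadjusted p = 0.0240, edgeR adjusted p = 0.323). At 6 h and 2 weeks its groups overlapped, with log2 differences of -0.13 (SE 0.110) and -0.05 (SE 0.129). STAU2 was level at 6 h (33.4 to 38.1 CPM under actD, 33.4 to 37.0 under DMSO) and overlapped at 72 h, where DMSO replicate 2 held 29.01 CPM and the other DMSO libraries 56.7 and 49.0. At 2 weeks STAU2 was at 27.9, 22.9 and 26.6 CPM in named actd and 30.5, 32.9 and 32.2 in named dmso. These groups were apart, with a log2 difference of -0.30 (SE 0.114, unadjusted p = 0.0276, edgeR adjusted p = 0.512).

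ILF2 (NF45) has no double-stranded RNA-binding domain of the usual kind and binds such RNA in complex with a partner protein. At 6 h its groups overlapped, with 530 to 583 CPM under actD and 451 to 686 under DMSO. At 72 h ILF2 RNA was 333, 282 and 242 CPM under actD and 499.7, 515 and 350.4 under DMSO. The highest actD library lay just below the lowest DMSO library, and the log2 fold change was -0.67 (SE 0.238, unadjusted p = 0.0238, edgeR adjusted p = 0.323). At 2 weeks the groups overlapped (log2 difference -0.11, SE 0.129). Reads could be shared with the processed pseudogenes ILF2P1 and ILF2P2.

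**Figure D2:**
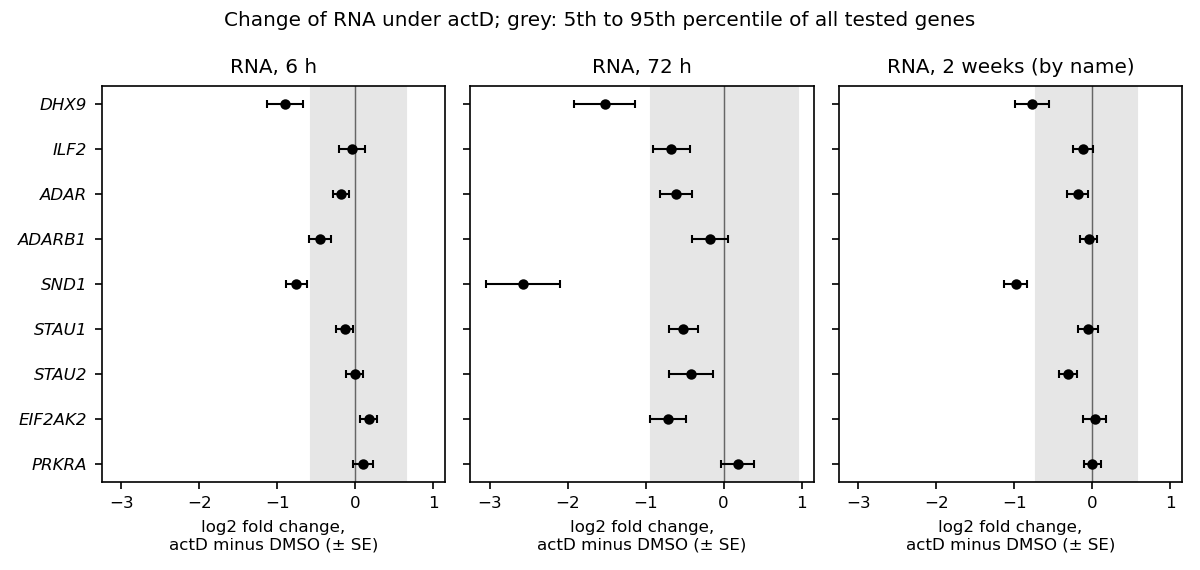
Log2 fold change of RNA, actD minus DMSO (x axis, ± SE), for the 9 genes (y axis) at 6 h, 72 h and 2 weeks, the last as named actd minus named dmso, with the 5th to 95th percentile of all tested genes in grey. DHX9 and SND1 lay left of the grey band in all 3 panels, and the other 7 genes lay within it.

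No member passed an edgeR adjusted p under 0.05 in RNA at any time, where all genes gave 0, 1 (0.00472% of 21195) and 0 calls at 6 h, 72 h and 2 weeks. DESeq2, used as an alternative, called DHX9 and SND1 at each of the 3 times, where it called 204 of 22669 genes (0.9%) at 6 h, 605 of 21195 (2.85%) at 72 h and 197 of 21137 (0.932%) at 2 weeks. An unadjusted p under 0.05 was reached by 3 of 9 members at 6 h, by 6 at 72 h and by 3 at 2 weeks, each with lower RNA under actD or in named actd, and by none with higher RNA. Over all genes the shares were 4.54% lower and 3.67% higher at 6 h, 7.78% and 5.27% at 72 h, and 4.93% and 4% at 2 weeks. Groups did not overlap for 5 members at 6 h, 4 lower and 1 higher (15.8% of all genes, 8.17% lower and 7.66% higher). At 72 h they did not overlap for 6 members, all lower (20.9% of all genes, 10.3% lower and 10.5% higher), and at 2 weeks for 3, all lower (15.7% of all genes, 7.83% lower and 7.86% higher). The median log2 fold change of the 9 was -0.13 at 6 h, -0.61 at 72 h and -0.11 at 2 weeks, against 0.02, 0.02 and -0.02 over all tested genes.

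Whether the RNA effect of actD differed between 72 h and 6 h was tested as an interaction in 1 fit over both tables, with 4 calls among 24251 genes (0.0165%) and none among the 9. EIF2AK2 had an interaction of -0.91 on the log2 scale (SE 0.255, unadjusted p = 0.00386, edgeR adjusted p = 0.437). For SND1 it was -1.83 (SE 0.522, unadjusted p = 0.00430, edgeR adjusted p = 0.438). Without actD replicate 3 of 72 h, the library with the highest SND1 level of its group, it was -2.52 with an adjusted p of 0.00924. This was a call, among 38 of 25266 genes (0.15%) called in that fit. In DHX9 the interaction was -0.63 (SE 0.484, edgeR adjusted p = 0.779), and it ran from -0.96 without DMSO replicate 3 of 72 h to -0.14 without DMSO replicate 2 of 72 h.

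In ribosome footprints, few members were deep enough to test. Only ADAR and SND1 passed the filter on low counts at 6 h, and ADAR, SND1 and ILF2 at 72 h and 2 weeks. ADARB1, STAU1, STAU2, EIF2AK2 and PRKRA passed it at no time when each time was tested alone. They had at most 30 counts summed over the 3 libraries of a group, so for them a difference in translation was not detectable at this depth. In 1 fit over the 3 time points, 5 members passed the filter. A count of 0 allows up to 3 counts, which is 2.70 to 37.3 CPM depending on the footprint library. Such limits cover counting error only.

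SND1 footprints at 72 h numbered 6, 4 and 20 counts under actD and 68, 37 and 15 under DMSO, or 8.96, 10.9 and 23.8 CPM against 154, 124 and 187. The groups lay far apart, and the log2 fold change was -3.31 (SE 0.465, unadjusted p = 0.000106, edgeR adjusted p = 0.0417), the only call among the members in footprints, where 92 of 2426 genes (3.79%) were called and 53 (2.18%) were called lower. It is 0.101-fold of the DMSO level and lower in 3 of 3 libraries. The call rested on the setting: the adjusted p ran from 0.000135 to 0.188 over 12 alternatives, 6 of which kept it. It was 0.142 both with a replicate block and with scaling by library totals. Without actD replicates 1 and 2 it was 0.148 and 0.130, and without DMSO replicates 1 and 2 it was 0.188 and 0.154. The loss of calls was not particular to SND1. With the replicate block and in each of these 4 fits without a library, 0 of all tested genes were called. Library totals gave 7 calls among 2426 genes (0.289%). Mitochondrial ribosomal RNA took 16.3 ± 4.34% of these footprint counts under actD and 6.94 ± 3.22% under DMSO (SD, n = 3), and its part in the result was not tested.

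At 6 h SND1 footprints overlapped between groups, with 20.7, 23.8 and 17.98 CPM under actD and 35.7, 35.1 and 21.0 under DMSO (log2 fold change -0.58, SE 0.357, edgeR adjusted p = 0.889). TMM factors of these 6 h libraries ran from 0.383 (actD replicate 1) to 2.35 (DMSO replicate 1). Over 12 alternatives the log2 fold change at 6 h ran from -1.45 to -0.46, with no call. At 2 weeks, where no labels of footprint libraries conflict, they were 17.1, 9.12 and 14.6 CPM under actD and 27.9, 20.7 and 22.6 under DMSO. These 2-week groups were apart, with a log2 fold change of -0.78 (SE 0.290, unadjusted p = 0.0278, edgeR adjusted p = 0.562). As interactions, SND1 gave -2.66 for 72 h against 6 h (SE 0.605, unadjusted p = 0.000904, edgeR adjusted p = 0.733) and 2.38 for 2 weeks against 72 h (SE 0.545, unadjusted p = 0.000839, edgeR adjusted p = 0.241), with 0 of 3012 and 2 of 3760 genes (0.0532%) called and no member among them. Over 17 alternatives the SND1 interaction of 72 h against 6 h ran from -3.06 to -1.75.

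DHX9 passed the filter on low counts in no single footprint table, and its counts are given as they stand. At 6 h it had 8, 4 and 0 counts under actD and 48, 41 and 4 under DMSO. At 72 h it had 3, 0 and 4 under actD and 15, 18 and 0 under DMSO. The DMSO libraries with 4 and 0 counts were those of replicate 3, so the groups overlapped in counts at both times, and with no filter on low counts DHX9 was called lower at 72 h beside SND1. At 2 weeks the sums were 11 under actD and 15 under DMSO. It did pass in the joined tables of 6 h and 72 h, where its footprint effect of 72 h against 6 h was -1.15 (SE 1.39, edgeR adjusted p = 0.915), with -0.091 when scaled by library totals, -0.10 without actD replicate 1 of 6 h and -1.77 without actD replicate 3 of 6 h.

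ILF2 footprints at 72 h were 34.3, 35.3 and 19.0 CPM under actD and 65.6, 158 and 37.3 under DMSO, apart by a small gap. The 37.3 CPM of DMSO replicate 3 are 3 counts in the shallowest library, equal to its limit for a count of 0. Their log2 fold change was -1.66 (SE 0.531, unadjusted p = 0.0142, edgeR adjusted p = 0.102), or -0.97 without DMSO replicate 2. At 2 weeks ILF2 footprints overlapped, with a log2 fold change of 0.27 (SE 0.453). ADAR footprints overlapped at 6 h and at 72 h, where actD replicate 3 held 112 CPM against 43.3 and 48.9 in the other actD libraries and 90.5, 127 and 99.5 under DMSO. Its log2 fold change at 72 h was -0.62 (SE 0.455, edgeR adjusted p = 0.397). At 2 weeks ADAR footprints were apart, with 37.6, 33.1 and 27.7 CPM under actD and 57.3, 49.5 and 40.7 under DMSO (log2 fold change -0.58, SE 0.301, unadjusted p = 0.0915, edgeR adjusted p = 0.585). Footprint groups did not overlap, with actD lower, for 2 of 3 tested members at 72 h (16.2% of all tested genes), for 2 of 3 at 2 weeks (6.57%) and for 0 of 2 at 6 h (5.69%).

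**Figure D3:**
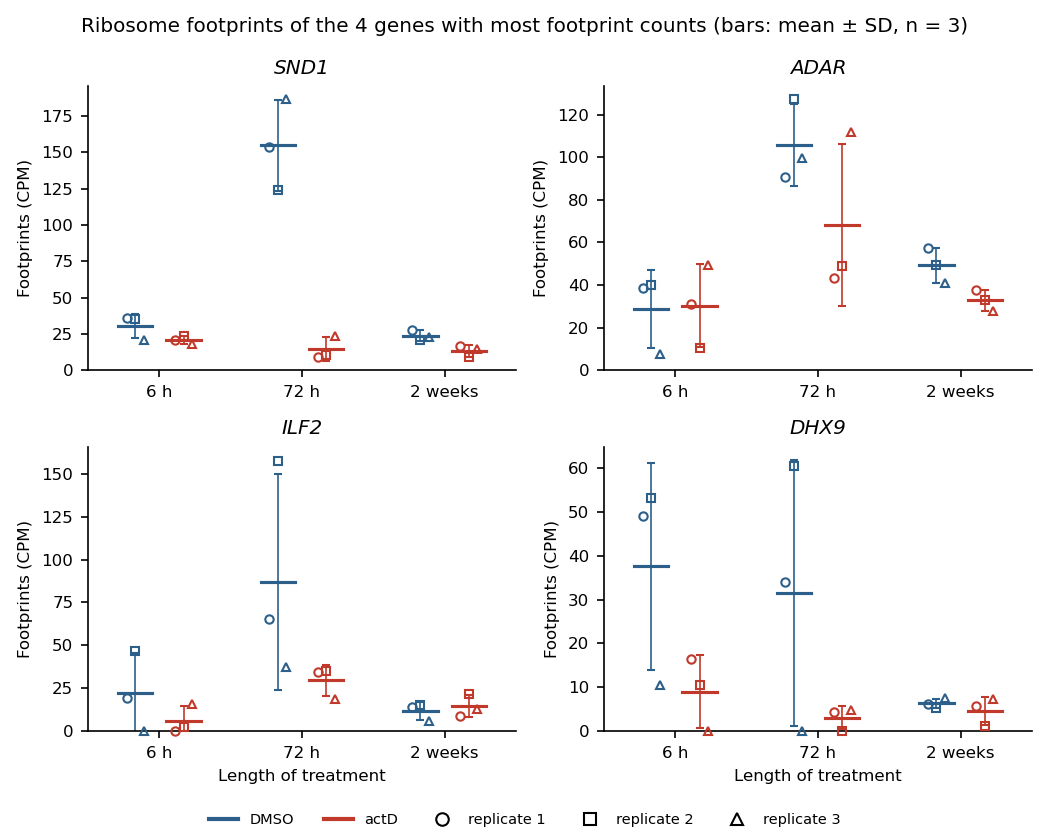
Footprint level in CPM (y axis, linear from 0) of SND1, ADAR, ILF2 and DHX9, the members with most footprint counts, in every library at 6 h, 72 h and 2 weeks (x axis), DMSO in blue and actD in red, 1 symbol per replicate number and bars at the mean ± SD of 3 libraries. SND1 at 72 h lay between 8.96 and 23.8 CPM under actD and between 124 and 187 under DMSO.

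Translational efficiency sets a gene's footprints against its RNA and was tested as the interaction of assay and treatment. No member was called at any time by edgeR, where 0 of 951, 10 of 2311 (0.433%) and 0 of 1441 genes were, and none had an unadjusted p under 0.05 (5.26%, 14.9% and 5.14% of all genes at 6 h, 72 h and 2 weeks). DESeq2 called no member either. At 72 h the change in efficiency was -0.83 for SND1 (SE 0.694, edgeR adjusted p = 0.593), -1.17 for ILF2 (SE 0.599, adjusted p = 0.384) and -0.17 for ADAR (SE 0.493, adjusted p = 0.912). That of SND1 ran from -1.42 without footprint actD replicate 3 to -0.14 without RNA actD replicate 3, and that of ILF2 was -0.46 without footprint DMSO replicate 2. At 2 weeks SND1 stood at 0.13 (SE 0.315, adjusted p = 0.986), but with the 2-week RNA libraries taken by their titles it was -1.79 with an adjusted p of 0.0195, so this value turns on which label is right. By titles 27 of 1441 genes (1.87%) were called.

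Lists of related genes give the setting of the 9 at 72 h in RNA, with each median beside the 0.02 of all genes and each count beside the 7.78% lower and 5.27% higher of all genes, and no gene of these lists was called by edgeR when that table was fitted alone. Of the genes named below, 1 fit over the 3 time points by edgeR called STRBP (adjusted p = 0.00988), ISG15 (0.0304) and EIF2S3 (0.0470) at 72 h, and DESeq2 called STRBP (0.0383). Among 14 other genes with such domains, 11 were tested, with 2 lower and 1 higher at an unadjusted p under 0.05 and a median of -0.11. The smallest p values were those of STRBP, a spermatid RNA-binding protein (36.5 ± 1.47 CPM under actD, 56.3 ± 2.49 under DMSO, SD, n = 3; log2 fold change -0.62), DUS2, which makes dihydrouridine in transfer RNA (-0.81), and CDKN2AIP, a regulator of ARF and p53 (0.51). Of 12 sensors and effectors of double-stranded RNA, 8 were tested, with 2 lower, 0 higher and a median of -0.51. In this list IFIH1 (MDA5) and DHX58 (LGP2), sensors of the RIG-I family, stood at -1.68 and -1.10 but reached at most 6.08 and 1.65 CPM, and without DMSO replicate 3 they were at -0.70 and -0.37.

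Interferon-induced genes numbered 14, of which 13 were tested, with 2 lower, 1 higher and a median of -0.22. ISG15, a ubiquitin-like modifier, was at 17.4 ± 1.83 CPM under actD and 11.1 ± 1.68 under DMSO (SD, n = 3), with a log2 fold change of 0.65. IFIT1, which binds RNA lacking cap methylation, was at -0.62 and BST2, which tethers budding viruses, at -0.66 (-0.35 without DMSO replicate 3), so the members of this list with the smallest p pointed in different directions. The 10 kinases, subunits and phosphatase genes around eIF2 were all tested, with 3 lower, 0 higher and a median of -0.23. EIF2AK4 (GCN2, the kinase sensing lack of amino acids) was at -0.51, and the eIF2 subunit genes EIF2S2 and EIF2S3 were at -0.52 and -1.03, the latter at -0.46 without DMSO replicate 3. All 6 partners of Staufen-mediated decay were tested, with 2 lower, 0 higher and a median of -0.28. Their smallest p values were those of the exonuclease XRN1 (-0.61), the helicase UPF1 (-1.003, or -0.55 without DMSO replicate 2) and the kinase SMG1 (0.49, or 0.32 without DMSO replicate 3). At 6 h the same 5 lists held 4 of 48 tested genes at an unadjusted p under 0.05, all lower (all genes, 4.54% lower and 3.67% higher). At 2 weeks they held 6 of 49, 5 lower and 1 higher in named actd (all genes, 4.93% and 4%).

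**Figure D4:**
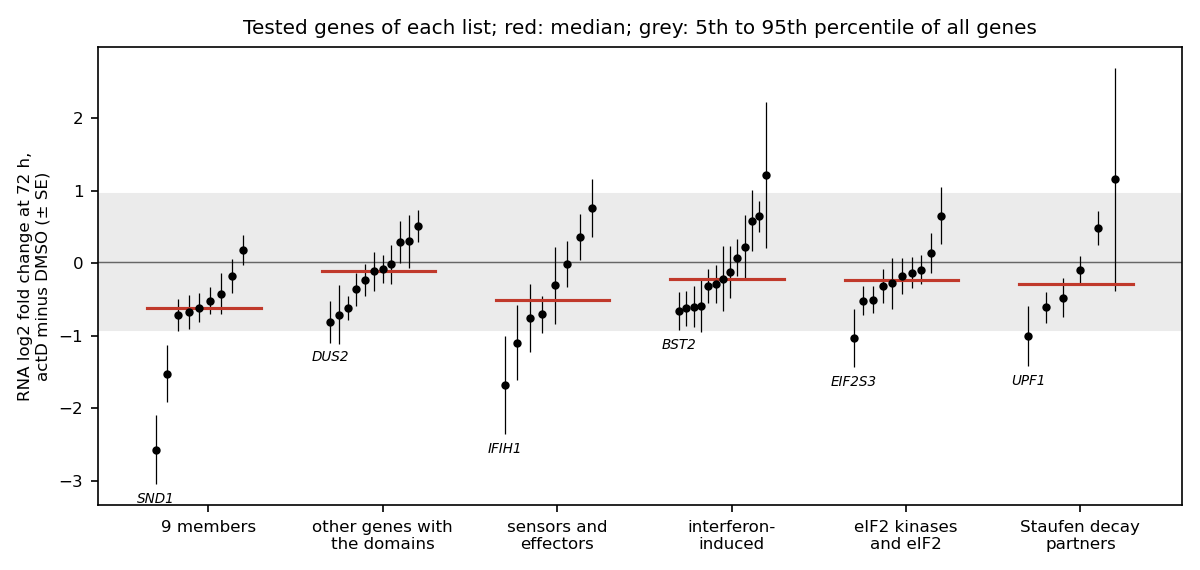
Log2 fold change of RNA at 72 h, actD minus DMSO (y axis, ± SE), for the tested genes of the 9 members and of 5 related lists (x axis), with the median of each list in red and the 5th to 95th percentile of all tested genes in grey. The median of the members was -0.61, and those of the other lists ran from -0.51 to -0.11.

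The genes whose RNA moved most like each member were read off the 18 RNA libraries as the Pearson correlation of log2 CPM centred on each table's mean, over 14016 protein-coding genes. These libraries share treatments, depth and composition, so the values are descriptions only. For DHX9 they were SNRNP200, a spliceosomal helicase (0.99), and MCM2, a subunit of the replicative helicase (0.98). For SND1 they were EPRS, a transfer RNA synthetase (0.98), and CTPS2, a CTP synthase (0.98). ADAR lay nearest HK2, a hexokinase (0.98), and MCM6, another subunit of the replicative helicase (0.96). Nearest to ILF2 were TTC38 (0.94) and ACAT2 (0.93), and to STAU1 the sterol enzyme NSDHL and the proteasome subunit PSMD4 (both 0.94). EIF2AK2 lay nearest ME1 and ACSS3 (both 0.94), STAU2 nearest YME1L1 and BZW2 (both 0.90), ADARB1 nearest AATK (0.90) and GLI2 (0.89), and PRKRA nearest POLR2M (0.88) and PSMD10 (0.87). Between members, r was highest for ADAR with STAU1 (0.89) and with DHX9 (0.89) and lowest for DHX9 with PRKRA (-0.56).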

How the data were processed

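The authors deposited 6 tables, one for each assay at each time, whose columns are single libraries. The deposited values were read as estimated counts for each gene, which the authors made from aligned reads per the tools in the submitters' processing notes. They were already whole numbers, so rounding changed nothing. HISAT2, StringTie and hg38 are named in the submitters' processing notes, without roles or versions. The annotation, any use of strand and the counting of reads with several matching places are not given in the sources used here. Small values in the 6 h and 2-week RNA tables lie near multiples of a step above 1, so a fragment was worth more than 1 count there. The members and the related lists were chosen with earlier results of these data known.

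Each table was tested alone with edgeR 4.0.16 (R 4.3.3): filterByExpr, TMM, quasi-likelihood test, two-sided, Benjamini-Hochberg over all tested genes, calls at an adjusted p under 0.05. With 3 libraries against 3, an exact permutation test cannot go below 0.1. Efficiency and time effects were interaction terms over joined tables, with the 2-week RNA left out of the time tests. Standard errors were derived from the log2 fold change and its F statistic. The fits were tried on simulated counts with a fixed spread between libraries and changes put only into well-counted genes. That trial does not cover the real spread between libraries or the low footprint counts of the members. Alternatives were DESeq2 1.42.0, other scaling, no filter, a replicate block, 1 fit over 3 times, leaving out each library and, at 2 weeks, groups by title. All 9 members were named throughout, of each related list the 3 genes with the smallest p in RNA at 72 h (1 of these is not reported here), and for each member the 2 protein-coding genes with the highest correlation. Same-numbered libraries were not shown to be paired: deviations from the group means correlated above 0.1 in all 3 pairs only between RNA and footprints under actD at 72 h (0.17 to 0.43). Differently numbered libraries reached 0.23 there. Between actD and DMSO RNA at 72 h, r was 0.085 to 0.23 in same-numbered pairs and -0.15 to -0.024 in the others, so pairing there is not excluded. At 6 h the same-numbered pairs gave -0.14 to -0.025. Of the value columns, all 36 were used. Symbols and coordinates come from GENCODE release 29, to which 99.4% of identifiers matched without version. Upstream windows come from RefSeq, which held none for STAU2 here. Where a gene had several, only the window nearest its GENCODE 5′ end was searched.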

Additional observations from a re-analysis of the deposited data

How the results depend on the processing

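Members called in RNA numbered 0 by edgeR and 2 (DHX9 and SND1) by DESeq2 at 6 h, 72 h and 2 weeks, and 4 at 72 h (with ADAR and EIF2AK2) in 1 fit over the 3 time points, which called 1212 of 24803 genes (4.89%). In footprints at 72 h the 1 call (SND1) became 0 with library totals or the replicate block (log2 fold change -3.48, adjusted p = 0.142), 2 with no filter (DHX9 and SND1, among 321 of 13813 genes, 2.32%), and 0 to 1 with a library left out. Over all genes, library totals gave 7 calls of 2426 (0.289%) and the replicate block 0. With a library left out, all genes gave 0 to 282 calls (0 to 10.4%), and 0 in each fit that lost SND1. Leaving out a library gave 0 to 1 calls for the RNA effect of 72 h against 6 h. The 1 call was SND1 without actD replicate 3 of 72 h, among 38 of 25266 genes (0.15%). By titles, 1 member was called in efficiency at 2 weeks (SND1, -1.79), among 27 of 1441 genes (1.87%). The replicate block changed no other call. By titles the 2-week RNA differences became 0.77 for DHX9, 0.11 for ILF2, 0.19 for ADAR, 0.043 for ADARB1, 0.98 for SND1, 0.047 for STAU1, 0.30 for STAU2, -0.032 for EIF2AK2 and -0.0013 for PRKRA. Library totals moved the median of all genes from -0.02 to -0.18 in 2-week RNA and from 0.11 to -0.61 in footprints at 6 h. Under them EIF2AK2 and PRKRA were at -0.12 and -0.15 in 2-week RNA, STAU2 at 0.0042 in RNA at 6 h, ADAR at -0.78 in footprints and -0.68 in efficiency at 6 h, at 0.21 in efficiency at 72 h and at 0.18 in the footprint effect of 72 h against 6 h, and SND1 at -0.68 in efficiency at 6 h. With no filter ADAR was at -0.22 in footprints at 6 h and -0.035 and 0.11 in efficiency at 6 h and 72 h, and SND1 at -0.055 in efficiency at 6 h. In 1 fit over the 3 time points ADAR footprints at 6 h were at -0.062, and with the replicate block the ADAR footprint effect of 2 weeks against 72 h was 0.075. With a library left out, signs turned within these ranges: in RNA, STAU2 -0.055 to 0.042 and ILF2 -0.18 to 0.12 at 6 h; at 2 weeks, EIF2AK2 -0.051 to 0.19, PRKRA -0.074 to 0.058, STAU1 -0.092 to 0.047 and ADARB1 -0.11 to 0.0095; PRKRA -0.054 to 0.21 for 72 h against 6 h. In footprints they were ADAR -0.48 to 0.37 at 6 h and -0.31 to 0.48 for 2 weeks against 72 h, and ILF2 -0.18 to 0.56 at 2 weeks and -0.49 to 2.56 for 72 h against 6 h. In efficiency they were ADAR -0.18 to 0.47 and SND1 -0.030 to 0.41 at 6 h, ADAR -0.69 to 0.14 at 72 h, and SND1 -0.073 to 0.37 and ILF2 -0.092 to 0.66 at 2 weeks. Of the values whose sign turned, only that of SND1 in efficiency by titles was a call, and the cause was not tested. Of 1020 alternative values of single genes, 939 kept their direction and side of the threshold. Footprint depth limits 6 of the 9 members: they passed the filter in no single footprint table.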
